A study of Mus musculus with 12 samples.

Results

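Major histocompatibility complex (MHC) class I antigen presentation was examined through 10 genes, H2-K1, H2-D1, H2-T23, B2m, Tap1, Tap2, Tapbp, Psmb8, Psmb9 and Nlrc5, which were taken by name from 54833 genes in the table. They were taken for their role in the pathway, by a rule that uses no measured value, with earlier results of these data known. All 10 were among the 21495 genes with enough counts to be tested.

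RNA was sequenced from perihematomal tissue of the ipsilateral caudate putamen of wild-type male C57BL/6 mice, collected 24 h after surgery. Intracerebral hemorrhage (ICH) was induced by injecting collagenase, an enzyme that breaks down the matrix around small vessels, and sham mice received saline through the same operation. The 2 surgeries were combined with 2 ages, young (8 to 10 weeks) and aged (20 to 22 months), into 4 groups of 3 samples. Every mouse was perfused with phosphate-buffered saline before dissection, and each sample pooled 2 or 3 mice.

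A class I molecule is a heavy chain bound to beta-2-microglobulin and a short peptide. Proteasomes cut cytosolic proteins into peptides, the TAP transporter moves these into the endoplasmic reticulum, and tapasin holds empty class I molecules next to TAP while they are loaded. Loaded molecules are read at the cell surface by CD8 T cells and by receptors of natural killer (NK) cells. Healthy neurons carry little class I, microglia and endothelial cells carry more, and interferons (IFNs) raise the genes of nearly every step in most cell types.

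Between 28410896 and 37785160 reads were counted on genes per sample. Markers of striatal neurons were present in every sample by FPKM (fragments counted on a gene, scaled to its length and to the depth of the sample). Their sum was 424 to 741 in young sham and 376 to 695 in aged sham. It was 333, 123 and 494 in young ICH samples 1 to 3, and 95.6, 561 and 231 in aged ICH samples 1 to 3. All 8 had log2FC below 0 after ICH, with a median of −0.95 in young and −1.11 in aged mice. With this spread, 0 of the 8 were differentially expressed genes (DEGs) between any groups. Choroid plexus markers separated 3 libraries from the rest, young ICH sample 3 and aged ICH samples 1 and 2. Their summed FPKM of Ttr, Kl, Folr1, Sostdc1 and Kcnj13 was 1227 to 3161, against 4.95 to 339 in the other 9, so results are also given without these 3 libraries. In bulk tissue, a change in the number of cells that express a gene and a change in RNA per cell cannot be told apart.

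In young mice, 7 of the 10 genes were upregulated DEGs after ICH by the criterion of the study, a fold change (FC) above 1.5 with unadjusted *P* under 0.05. This criterion was met by 8.66% of all genes tested in that direction. With Benjamini-Hochberg adjustment over all genes tested (edgeR), 5 rose, against 9.89% of all genes: H2-K1, H2-D1, Tap1, Tap2 and Psmb8. With DESeq2, the method of the study, 8 passed adjustment, with B2m, Tapbp and Psmb9 in addition. The share of all genes past adjustment with DESeq2 was not computed. A higher count with DESeq2 therefore need not be particular to these 10 genes. The median log2FC of the 10 genes was 0.76, compared with 0.022 for all genes. Tap1 and Tap2 had the largest FC, 2.17 and 2.08, and the heavy chain H2-T23 had an FC of 0.986. In FPKM, every young ICH sample lay above every young sham sample for 8 of the 10, which held for 25.9% of all genes. FPKM lacks the TMM factors that scaled the libraries in the tests. These were 0.954 to 0.963 in young sham and 1.007 to 1.036 in young ICH samples, so FPKM places ICH samples higher relative to sham.

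In aged mice, all 10 genes were upregulated DEGs after ICH, as were 7.24% of all genes tested. After adjustment 8 rose, against 7.0% of all genes, and the remaining pair, B2m and H2-T23, had adjusted *P* = 0.0554 and 0.117 (edgeR). With DESeq2, 9 passed, again without a share over all genes. The median log2FC was 0.91, against 0.002 for all genes. Nlrc5, Tap1 and Psmb8 had the largest FC, 2.61, 2.56 and 2.45. For 9 of the 10 the aged groups did not overlap in FPKM, as for 24.6% of all genes.

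These counts depended on single libraries. For fits with fewer samples, here and below, the share of all genes past the same threshold was not computed. A lower count in such a fit therefore need not be particular to these 10 genes. In young mice, the 5 genes past adjustment became 2 without young sham sample 1, 1 without young sham sample 2, 3 without young ICH sample 1, 1 without young ICH sample 3 and 3 without aged ICH sample 3, while the 7 DEGs became 4 without young sham sample 2. In aged mice, the 8 became 5, 2 and 4 without aged sham samples 1, 2 and 3, 1 without aged ICH sample 1 and 3 without aged ICH sample 3. Without the 3 choroid plexus-rich libraries, 2 young ICH samples and 1 aged ICH sample were left, and the lone sample was assumed to vary like the other groups. Fewer of the 10 genes passed each threshold in that fit, and with 1 group of 1 sample only log2FC are given. The lowest were 0.49 for B2m in aged mice (0.59 in the full fit) and −0.11 for H2-T23 in young mice (−0.02 in the full fit). The log2FC in aged mice were then 1.28 for Nlrc5, 1.24 for Tap1 and Psmb8, 1.09 for Psmb9 and 0.97 for Tap2, and in young mice 1.01 for Tap1, 0.84 for Tap2, 0.8 for Psmb8 and 0.69 for H2-K1. All log2FC of the 10 genes in the aged ICH vs. aged sham comparison stayed above 0 whichever library was left out.

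**Figure D1:**
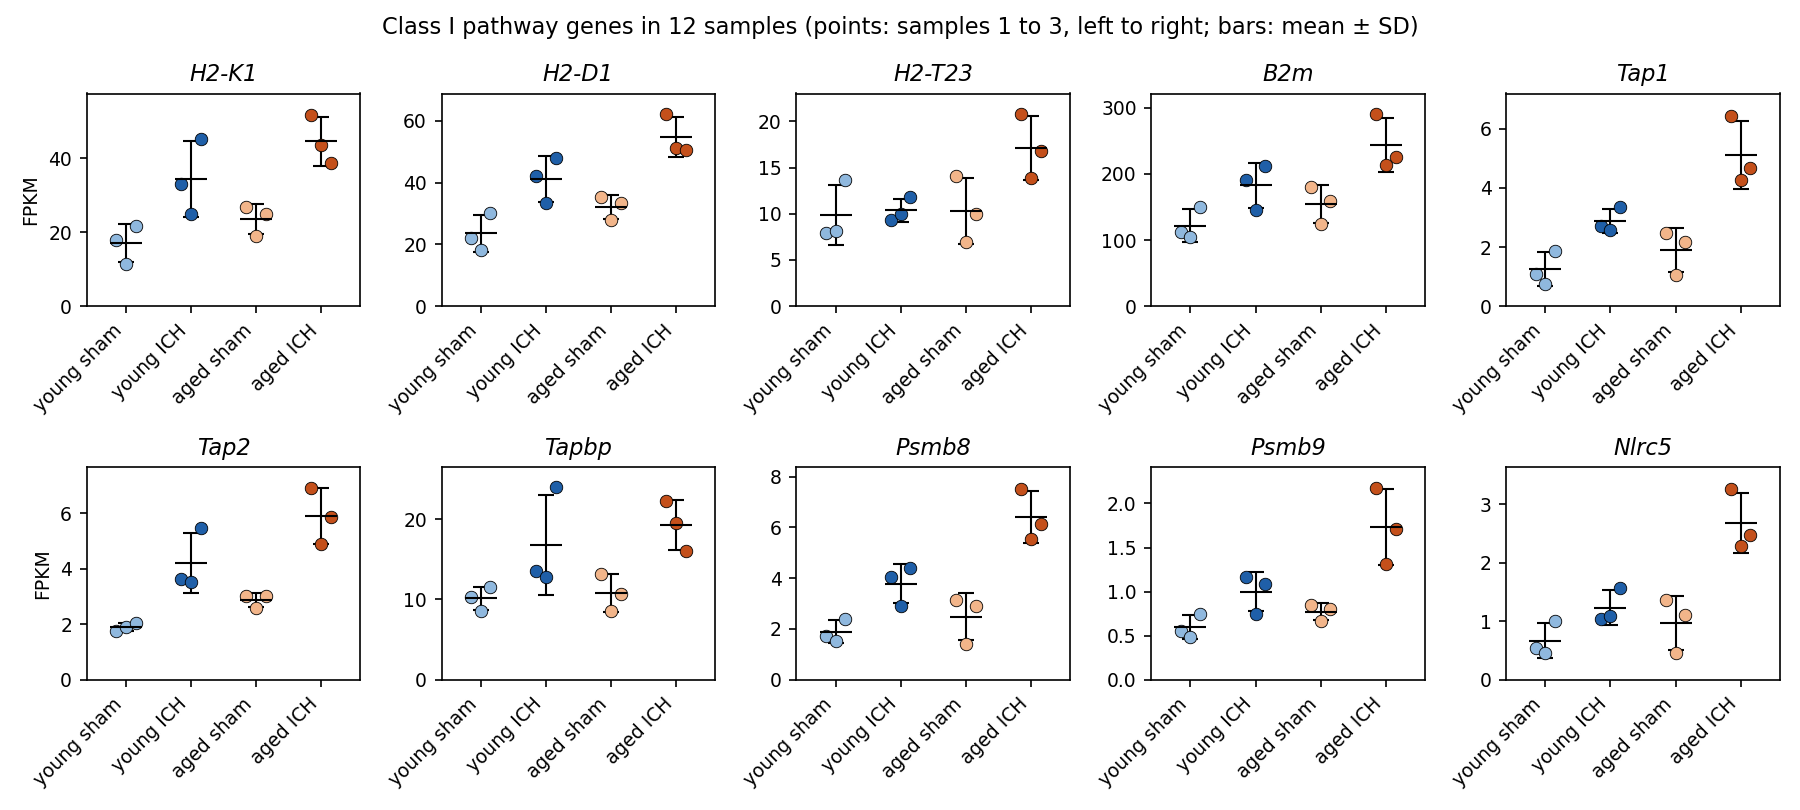
FPKM of the 10 class I pathway genes, 1 panel per gene, in the 4 groups of 3 samples (points, samples 1 to 3 from left to right), with the mean and SD of each group as bars on a linear axis from 0. Every aged ICH sample lies above every aged sham sample for all genes except H2-T23, and every young ICH sample above every young sham sample for all except H2-T23 and B2m.

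The 10 genes differed widely in level. In the young sham group, B2m averaged 122 ± 24.3 FPKM (SD, n = 3), H2-D1 23.5 ± 6.15, H2-K1 17.1 ± 5.18, Tapbp 10.1 ± 1.45 and H2-T23 9.9 ± 3.24. Tap2 and Psmb8 followed at 1.9 ± 0.135 and 1.89 ± 0.453, then Tap1 at 1.25 ± 0.573, Nlrc5 at 0.666 ± 0.298 and Psmb9 at 0.595 ± 0.135. By FPKM the light chain gene was thus highest, the classical heavy chains came next, and the transporter, the inducible proteasome subunits and the regulator were lowest. Distances between genes depend on the length by which FPKM divides each gene. In young sham sample 1, B2m had 3625 counts and H2-D1 2147, at 112 and 22.0 FPKM. Samples of H2-D1 and H2-K1, of Tapbp and H2-T23, and of each neighboring pair from Tap2 to Psmb9 overlapped in this group, so their order there was within the spread. In the aged ICH group the same 5 genes led, and Psmb8 stood ahead of Tap2, at 6.41 ± 1.01 and 5.89 ± 1.0 FPKM, again with overlapping samples.

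H2-K1 and H2-D1 encode the classical heavy chains, which present peptides to CD8 T cells. H2-K1 (ENSMUSG00000061232, GRCm38.p6 chr17:33996017-34000347, minus strand) was measured at 18.0, 11.5 and 21.7 FPKM in young sham samples 1 to 3, 33.1, 24.8 and 45.2 in young ICH, 26.9, 19.0 and 24.8 in aged sham and 51.7, 43.5 and 38.6 in aged ICH. Each ICH group lay wholly above its sham group. H2-K1 rose by a log2FC of 0.92 ± 0.24 (SE) in young mice (adjusted *P* = 0.0224, edgeR) and 0.85 ± 0.24 in aged mice (adjusted *P* = 0.0391). H2-D1 (ENSMUSG00000073411, chr17:35262730-35267499, plus strand) was at 22.0, 18.3 and 30.3 FPKM in young sham, 42.0, 33.3 and 48.1 in young ICH, 35.2, 27.9 and 33.5 in aged sham and 62.1, 51.1 and 50.7 in aged ICH. Its groups also did not overlap, and the aged ICH samples were above every young ICH sample. H2-D1 rose by 0.72 ± 0.18 (adjusted *P* = 0.0165) and 0.69 ± 0.17 (adjusted *P* = 0.0251, edgeR). Of the 100-base windows of their transcripts, 0.96% for H2-K1 and 3.59% for H2-D1 also occur in transcripts of other genes, mostly other heavy chains, so few reads of either could be shared.

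H2-T23 encodes Qa-1, a nonclassical heavy chain that presents a peptide cut from the leader of other class I chains to the CD94/NKG2 receptors. Its level (ENSMUSG00000067212, chr17:36029773-36032855, minus strand) was 7.95, 8.11 and 13.6 FPKM in young sham, 9.37, 9.96 and 11.8 in young ICH, 14.1, 6.96 and 9.93 in aged sham and 20.8, 13.9 and 16.8 in aged ICH. Young ICH samples fell inside the range of the young sham samples, and only aged ICH sample 2 was within the range of the aged sham group. The log2FC was −0.02 ± 0.26 in young mice (adjusted *P* = 0.968, edgeR) and 0.66 ± 0.26 in aged mice (adjusted *P* = 0.117). The responses differed by 0.68 ± 0.37 on the log2 scale (interaction, adjusted *P* = 1.0, edgeR), the largest interaction of the 10 genes. H2-T23 shares 3.15% of its windows with other genes.

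B2m encodes beta-2-microglobulin, the light chain common to all these heavy chains. It (ENSMUSG00000060802, chr2:122147686-122153083, plus strand) was at 112, 104 and 150 FPKM in young sham, 191, 145 and 212 in young ICH, 180, 124 and 159 in aged sham and 291, 214 and 226 in aged ICH. Young ICH sample 2 lay below young sham sample 3, whereas the aged groups did not overlap. The log2FC was 0.50 ± 0.18 in young mice, below the DEG threshold (adjusted *P* = 0.0807, edgeR), and 0.59 ± 0.18 in aged mice, just above it (adjusted *P* = 0.0554). With DESeq2 the adjusted *P* of B2m was 0.0432 and 0.0141.

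Promoters of class I genes are known to carry an enhancer bound by NF-kB, an IFN response element bound by IRF factors, and a module whose X2 and Y boxes are bound by CREB/ATF and NF-Y proteins, on which Nlrc5 acts as coactivator. RefSeq promoters (GRCm38.p6) were given for 8 of the 10 genes, and the 250 bases before the start (225 for Tap1) were searched on both strands. The windows of H2-D1, Psmb8, Psmb9 and Tap1 lie within annotated exons of these or neighboring genes, and those of H2-T23 and Tapbp in part. The window of H2-K1 is shown whole because it held each of these 4 motifs once (chr17:34000348-34000597, minus strand). Capitals mark, from left to right, the kappa B motif GGGNNTTCC, the IFN response motif TTTCNNTTC, the X2 box TGACG and the Y box ATTGG, which is CCAAT on the opposite strand. None of these 4 overlaps another.
H2-K1: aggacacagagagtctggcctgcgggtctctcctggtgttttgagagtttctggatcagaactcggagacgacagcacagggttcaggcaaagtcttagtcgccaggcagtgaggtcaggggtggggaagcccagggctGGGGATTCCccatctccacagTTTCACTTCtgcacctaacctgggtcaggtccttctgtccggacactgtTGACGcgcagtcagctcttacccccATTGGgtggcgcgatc

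The first pair of motifs, 12 bases apart, was then sought as 1 stretch of 30 bases. Such a stretch was found in 4 of 32851 promoters (0.0122%), which belong to 3 genes, all heavy chains, and the sequences are printed to show how alike they are. H2-Q6 is included for this match and was chosen after its values were seen.
H2-K1: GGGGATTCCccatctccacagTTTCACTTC
H2-D1: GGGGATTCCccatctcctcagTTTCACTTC
H2-Q6: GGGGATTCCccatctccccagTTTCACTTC

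H2-D1 (chr17:35262923-35262952) and H2-Q6 (chr17:35424677-35424706) each differed from H2-K1 (chr17:34000429-34000458, minus strand) at 1 base of this stretch. An X2 box followed after 20 bases by ATTGG occurred in 30 promoters (0.0913%) of 26 genes, among them H2-K1, H2-D1, B2m and, named only for this match, the nonclassical heavy chain gene H2-M3.
H2-K1: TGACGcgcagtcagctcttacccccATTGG
H2-D1: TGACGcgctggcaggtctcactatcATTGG
B2m: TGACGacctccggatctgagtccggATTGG

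Apart from the capitals, H2-D1 differed from H2-K1 at 7 bases and B2m (chr2:122147609-122147638) at 17. Single motifs were common by comparison, with kappa B in 4.98% of promoters, the IFN motif in 6.31%, TGACG in 17.8% and CCAAT in 33.8%. Among the other genes, Tap1 and Psmb9, which are transcribed away from each other and share 1 window, held the same TGACG and the same CCAAT box there at another spacing, and H2-T23 and Tapbp held CCAAT. These matches describe letters only, and the spacings were noticed in the H2-K1 window before they were counted.

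Tap1 and Tap2 encode the paired chains of the peptide transporter. Tap1 (ENSMUSG00000037321, chr17:34187553-34197225, plus strand) was at 1.1, 0.767 and 1.88 FPKM in young sham, 2.71, 2.59 and 3.36 in young ICH, 2.49, 1.05 and 2.16 in aged sham and 6.43, 4.25 and 4.66 in aged ICH. Both ICH groups were above their sham groups, and aged ICH above young ICH, without overlap. Tap1 rose by a log2FC of 1.12 ± 0.34 in young mice (adjusted *P* = 0.0391, edgeR) and 1.36 ± 0.33 in aged mice (adjusted *P* = 0.0224). Its exons overlap those of Psmb9 on the opposite strand over 212 bases, 3.87% of its exonic length.

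Tap2 (ENSMUSG00000024339, chr17:34203527-34216321, plus strand) was at 1.77, 1.89 and 2.04 FPKM in young sham, 3.64, 3.53 and 5.46 in young ICH, 3.01, 2.6 and 3.01 in aged sham and 6.91, 4.9 and 5.88 in aged ICH. Sham and ICH samples did not overlap at either age, and every aged sham sample exceeded every young sham sample. Tap2 rose by 1.06 ± 0.17 in young mice (adjusted *P* = 0.00274, edgeR) and 0.97 ± 0.17 in aged mice (adjusted *P* = 0.00641), the smallest adjusted *P* of the 10 genes at either age. Of its exonic length 14.1% overlaps the long RNA Gm15821 on the opposite strand, and no source used here gives the strand setting of the counting.

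Tapbp encodes tapasin, which bridges TAP and the empty class I molecule. It (ENSMUSG00000024308, chr17:33915899-33929292, plus strand) was at 10.3, 8.58 and 11.5 FPKM in young sham, 13.6, 12.8 and 24.0 in young ICH, 13.2, 8.55 and 10.7 in aged sham and 22.3, 19.5 and 16.0 in aged ICH. The groups were separate at either age, and the high samples, young ICH sample 3 and aged ICH samples 1 and 2, were the 3 with choroid plexus markers. The log2FC was 0.64 ± 0.23 in young mice (adjusted *P* = 0.0749, edgeR), and Tapbp rose by 0.76 ± 0.23 in aged mice (adjusted *P* = 0.0498). Without those 3 libraries the log2FC was 0.31 in young mice and, with 1 aged ICH sample left, 0.51 in aged mice. Antisense gene Gm19412 overlaps 24.92% of its exonic length.

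Of 5 other genes of peptide trimming and loading, Erap1, the aminopeptidase that trims peptides in the endoplasmic reticulum, rose at both ages (log2FC 0.67 ± 0.15 and 0.60 ± 0.15, adjusted *P* = 0.0112 and 0.0254, edgeR). The other four did not pass adjustment at either age. Tapbpl, a tapasin-related peptide editor, had log2FC of 0.08 ± 0.11 and 0.35 ± 0.11, the chaperone Calr 0.06 ± 0.12 and 0.18 ± 0.12, and Pdia3, a disulfide isomerase of the loading complex, 0.21 ± 0.12 and 0.30 ± 0.12.

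**Figure D2:**
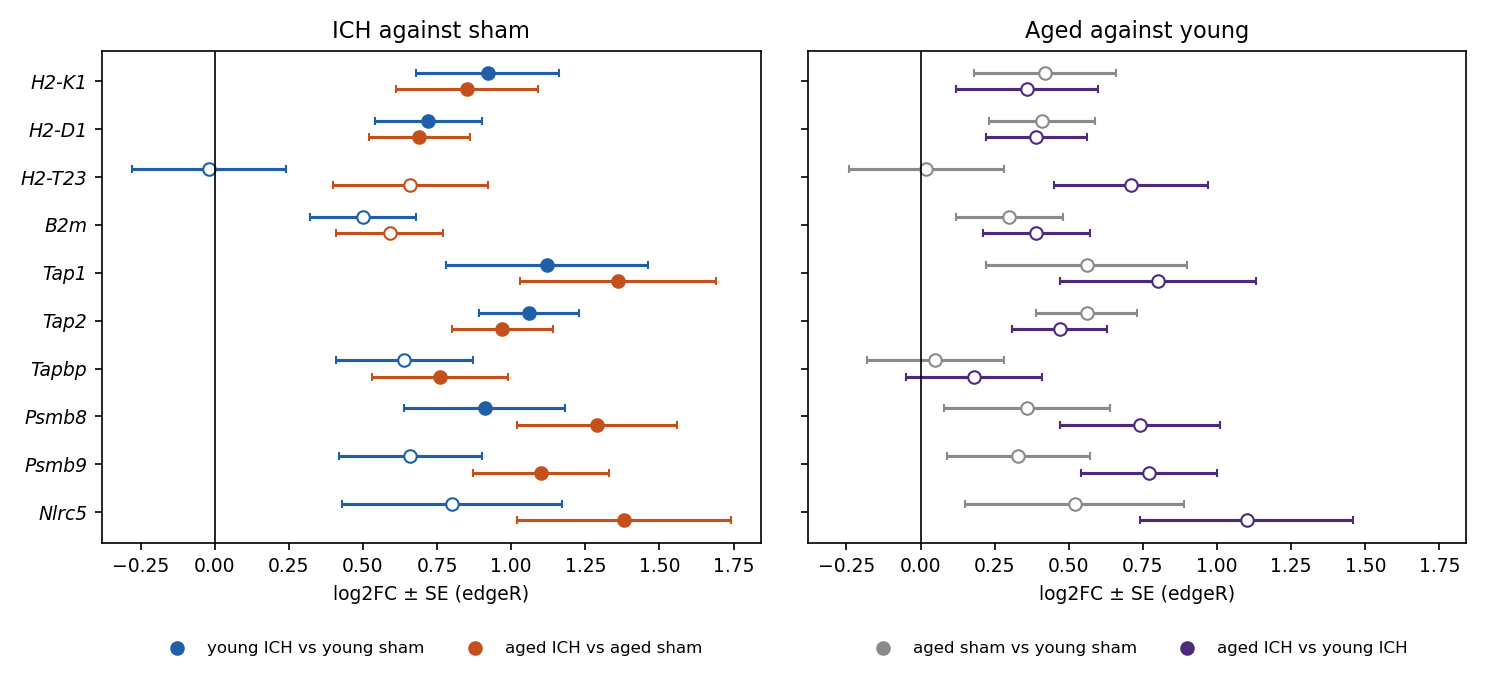
log2FC with SE (edgeR) of the 10 genes for ICH against sham (left) and aged against young (right), with filled points for adjusted *P* under 0.05 and open points for all others. Between ICH and sham, 5 points are filled for young mice and 8 for aged mice, and none is filled between ages, although all 20 points there are above 0.

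Psmb8 and Psmb9 encode LMP7 and LMP2, catalytic subunits that replace Psmb5 and Psmb6 in the immunoproteasome and change which peptides are cut. Psmb8 (ENSMUSG00000024338, chr17:34197721-34201454, plus strand) was at 1.74, 1.54 and 2.4 FPKM in young sham, 4.05, 2.91 and 4.41 in young ICH, 3.15, 1.42 and 2.9 in aged sham and 7.53, 5.56 and 6.14 in aged ICH. No ICH sample fell within a sham range of its age, and the lowest aged ICH sample was above the highest young ICH sample. Psmb8 rose by 0.91 ± 0.27 in young mice (adjusted *P* = 0.0386, edgeR) and 1.29 ± 0.27 in aged mice (adjusted *P* = 0.0129). Of its exonic length 14.73% overlaps antisense gene Gm20496.

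Psmb9 (ENSMUSG00000096727, chr17:34181987-34187764, minus strand) was at 0.55, 0.488 and 0.746 FPKM in young sham, 1.16, 0.75 and 1.09 in young ICH, 0.848, 0.661 and 0.801 in aged sham and 2.17, 1.31 and 1.71 in aged ICH. It had the fewest counts of the 10 genes, 59 to 275 per sample. Young ICH sample 2 barely exceeded young sham sample 3, by less than their TMM factors of 1.007 and 0.963 differ. The aged ICH samples stood clear of the other 9. The log2FC was 0.66 ± 0.24 in young mice (adjusted *P* = 0.0711, edgeR), and Psmb9 rose by 1.1 ± 0.23 in aged mice (adjusted *P* = 0.0129).

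Among the other genes of the inducible system, Psmb10, the third inducible catalytic subunit, had log2FC of 0.25 ± 0.16 and 0.48 ± 0.16 in young and aged mice (adjusted *P* = 0.313 and 0.0768, edgeR). Of the proteasome activator subunits, Psme2 rose at both ages (0.55 ± 0.13 and 0.65 ± 0.13, adjusted *P* = 0.0144 and 0.0112), and Psme1 rose in aged mice (0.52 ± 0.12, adjusted *P* = 0.0201), with 0.38 ± 0.12 in young mice (adjusted *P* = 0.0522). None of the 14 constitutive core subunits was a DEG or passed adjustment (edgeR), with log2FC between −0.15 and 0.07 in young mice and between −0.08 and 0.17 in aged mice. At unadjusted *P* under 0.05 there were 0 and 2 of these 14, against 33.2% and 28.9% of all genes in either direction. In FPKM, every ICH sample lay above every sham sample for 3 of the 14 in young mice and 12 in aged mice, against 25.9% and 24.6% of all genes. FPKM lacks the TMM factors, which were 0.977 to 1.0 in aged sham and 1.034 to 1.041 in aged ICH samples. Psma4, for example, was at 25.2 in aged sham sample 1 and 25.8 in aged ICH sample 2, a smaller gap than that between their factors.

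Levels of each inducible subunit were set against the constitutive subunit it replaces, as a percentage of FPKM within each sample. Psmb8 stood at 3.72% ± 0.708 of Psmb5 in young sham (SD, n = 3), 7.31% ± 1.21 in young ICH, 5.36% ± 1.98 in aged sham and 13.0% ± 2.19 in aged ICH. Psmb9 stood at 2.22% ± 0.45, 3.33% ± 0.474, 3.0% ± 0.313 and 5.93% ± 1.48 of Psmb6. Psmb10 was at 67.4% ± 14.3 of Psmb7 in young sham, and at 89.3% ± 6.72, 68.2% ± 6.09 and 101% ± 26.7 in the others. These percentages depend on the length by which FPKM divides each gene, so they are not proportions of subunits. In young sham sample 1, Psmb10 had 674 counts and Psmb7 2482, at 10.5 and 19.2 FPKM. Comparing 1 ratio between groups does not depend on length, whereas comparing the 3 ratios with each other does. The first 2 ratios were higher in every ICH sample than in every sham sample of the same age, and higher in every aged ICH than every young ICH sample. A two-sided exact permutation test of 3 against 3 samples gave *P* = 0.1 for each of these 6 differences, the smallest it can give, and 0.171 after adjustment over 12 tests.

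**Figure D3:**
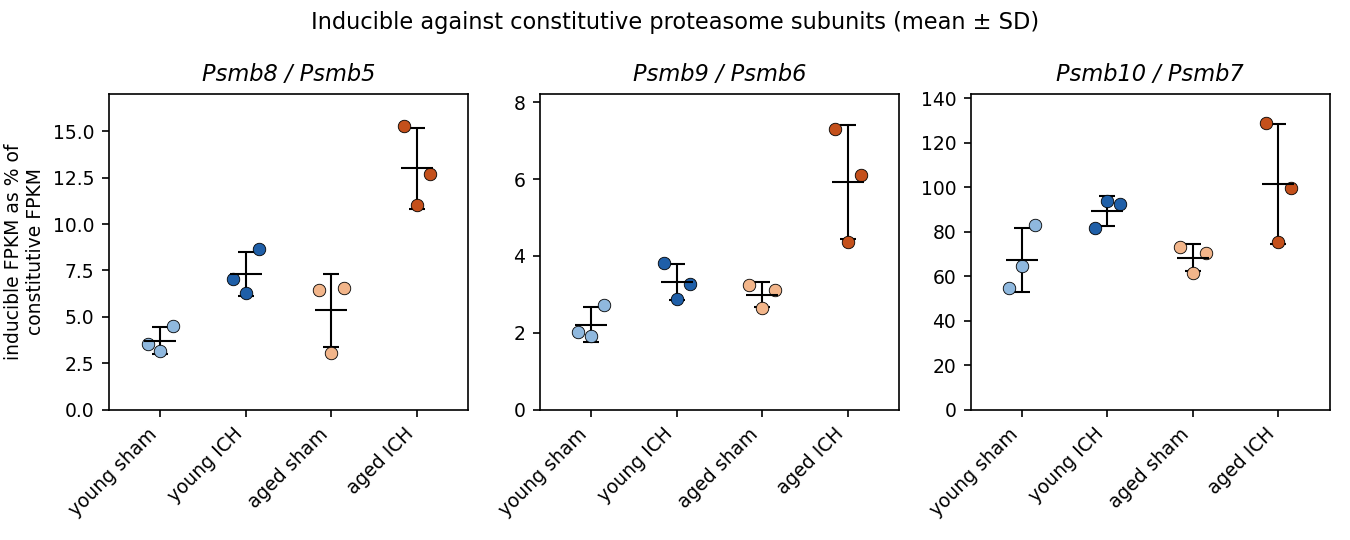
FPKM of 3 inducible proteasome subunits as a percentage of the constitutive subunit each replaces, per sample (points) with group mean and SD (bars), on linear axes from 0. Psmb8 / Psmb5 and Psmb9 / Psmb6 are highest in the 3 aged ICH samples, at 11.0% to 15.3% and 4.37% to 7.31%, and Psmb10 / Psmb7 overlaps between young ICH and aged ICH.

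Nlrc5, the class I transactivator, had low levels (ENSMUSG00000074151, chr8:94434356-94527272, plus strand) of 0.539, 0.452 and 1.01 FPKM in young sham, 1.03, 1.08 and 1.57 in young ICH, 1.36, 0.464 and 1.1 in aged sham and 3.25, 2.29 and 2.47 in aged ICH. Counts behind these values were 119 to 956 per sample. The aged ICH samples were above all other samples, and the young ICH samples were above the young sham samples by a narrow margin. The margin between young ICH sample 1 and young sham sample 3 was less than their TMM factors of 1.016 and 0.963 differ. The log2FC was 0.80 ± 0.37 in young mice (adjusted *P* = 0.157, edgeR), and Nlrc5 rose by 1.38 ± 0.36 in aged mice (adjusted *P* = 0.0299). Of 8 genes for its DNA-binding partners (RFX, CREB/ATF and NF-Y proteins), Atf1 rose in young mice (0.33 ± 0.08, adjusted *P* = 0.0203) and had a log2FC of 0.26 ± 0.08 in aged mice (adjusted *P* = 0.0602). No other partner passed at either age, and the 8 ranged from −0.18 to 0.33 in young mice and from −0.09 to 0.26 in aged mice.

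Next, aged and young mice were compared within each surgery. In aged sham vs. young sham samples, all 10 log2FC were above 0, from 0.02 for H2-T23 to 0.56 for Tap1 and Tap2, with a median of 0.38 against 0.009 for all genes. None of the 10 was a DEG (2.82% of all genes were upregulated DEGs), and 0 passed adjustment with edgeR (0.0884% of all genes) or DESeq2. At unadjusted *P* under 0.05 there were 2 (12.3% of all genes), Tap2 and H2-D1, with log2FC of 0.56 ± 0.17 and 0.41 ± 0.18 and adjusted *P* = 0.245 and 0.372 (edgeR). Of the 10, only Tap2 was separate between the groups, as were 13.7% of all genes in that direction. Without young sham sample 3, the highest of its group for all 10 genes, 5 were DEGs, and without aged sham sample 2, the lowest of its group for all 10, 4 were.

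In aged ICH vs. young ICH samples, 5 genes were upregulated DEGs (2.21% of all genes): Nlrc5 (log2FC 1.1 ± 0.36), Tap1 (0.80 ± 0.33), Psmb9 (0.77 ± 0.23), Psmb8 (0.74 ± 0.27) and H2-T23 (0.71 ± 0.26). Their adjusted *P* were 0.37, 0.471, 0.311, 0.431 and 0.435 (edgeR). Of the 10, 0 passed adjustment with edgeR (0.0372% of all genes) or DESeq2, with 7 at unadjusted *P* under 0.05 (9.54% of all genes). Every aged ICH sample was above every young ICH sample for 7 genes, against 8.53% of all genes, H2-K1, Tap2 and Tapbp being the exceptions. The median log2FC was 0.59, against −0.005 for all genes. There were 3 DEGs without young ICH sample 1, 3 without young ICH sample 2 and 1 without aged ICH sample 1. Without the choroid plexus-rich libraries, where 1 aged ICH sample was left, there were fewer DEGs. The log2FC were then 1.2 for Nlrc5, 0.81 for Psmb9, 0.79 for Psmb8 and Tap1, 0.77 for H2-T23 and 0.69 for Tap2.

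The response to ICH was not shown to differ between ages for any of the 10 genes. The interaction, the log2FC in aged mice less the log2FC in young mice, ranged from −0.09 for Tap2 to 0.68 for H2-T23, with 0 genes at unadjusted *P* under 0.05 (2.82% of all genes) and 0 past adjustment in edgeR or DESeq2. SEs of 0.24 to 0.52 left wide intervals: Nlrc5 had 0.59 ± 0.52, Psmb9 0.44 ± 0.33 and Psmb8 0.38 ± 0.38. H2-K1 and H2-D1 had −0.07 ± 0.34 and −0.02 ± 0.25.

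Other heavy chain and class I-like genes ranged widely. Of 19 listed, 15 had enough counts, with median log2FC of 0.42 and 0.41. After adjustment 5 rose in young mice and 4 in aged mice (edgeR), against 9.89% and 7.0% of all genes. H2-Q4, a nonclassical heavy chain gene, was at 3.77, 3.06 and 5.55 FPKM in young sham, 11.3, 9.92 and 16.0 in young ICH, 7.81, 3.38 and 6.46 in aged sham and 18.5, 13.2 and 16.5 in aged ICH. It rose by 1.5 ± 0.30 and 1.38 ± 0.29 (adjusted *P* = 0.00632 and 0.0133). H2-Q10 rose by 2.49 ± 0.47 and 2.30 ± 0.50 (adjusted *P* = 0.00512 and 0.0142) from 1 to 8 counts per sham sample to 16 to 31 per ICH sample, with 8.01% of its windows shared with other genes, the far more abundant H2-K1 among them. Hfe, an iron-regulating class I-like gene, rose by 0.77 ± 0.23 and 0.76 ± 0.23 (adjusted *P* = 0.0368 and 0.048), and H2-T22, whose product binds gamma-delta T cell receptors, rose in aged mice (0.46 ± 0.13, adjusted *P* = 0.0372), with 8.86% of its windows shared and 29.38% of its exonic length under an antisense gene. The lowest log2FC were −0.51 ± 0.28 for H2-T24 in young mice and −1.22 ± 0.65 for H2-Q2 in aged mice (adjusted *P* = 0.232 and 0.244).

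H2-Q6, with its promoter stretch shared with H2-K1, rose in young mice (1.0 ± 0.32, adjusted *P* = 0.0477, edgeR) and had 0.65 ± 0.30 in aged mice (adjusted *P* = 0.174). It was at 0.647, 0.783 and 1.58 FPKM in young sham, 2.64, 1.33 and 2.38 in young ICH, 3.72, 2.83 and 3.1 in aged sham and 5.98, 4.95 and 4.93 in aged ICH. Aged sham samples thus exceeded every young ICH sample, and the aged sham vs. young sham log2FC was 1.65 ± 0.32 (adjusted *P* = 0.104). H2-Q6 shares 10.78% of its windows with other genes, H2-D1 among them, so part of its reads cannot be assigned with certainty.

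Of 17 genes of IFN signaling upstream of class I, 15 were tested, with median log2FC of 0.36 and 0.43. After adjustment 5 rose in young mice and 8 in aged mice (edgeR), against 9.89% and 7.0% of all genes. Irf1, which binds the IFN response element of class I promoters, had 0.37 ± 0.18 (adjusted *P* = 0.18) and rose by 0.96 ± 0.18 in aged mice (adjusted *P* = 0.00915), with an interaction of 0.58 ± 0.26 (adjusted *P* = 1.0, edgeR). Stat2 had 0.57 ± 0.19 (adjusted *P* = 0.0557) and rose by 1.1 ± 0.19 in aged mice (adjusted *P* = 0.00661). Ifngr1, a receptor chain for IFN-gamma, rose at both ages (0.55 ± 0.09 and 0.43 ± 0.09, adjusted *P* = 0.00347 and 0.0145), as did Irf8, a factor of myeloid cells (0.52 ± 0.13 and 0.62 ± 0.13, adjusted *P* = 0.0181 and 0.0126). The ligand genes Ifng and Ifnb1 had at most 1 and 2 counts in any sample and were not tested.

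Of 5 NF-kB subunit genes, 3 rose at both ages, where 9.89% of all genes rose in young and 7.0% in aged mice. Nfkb2 rose by 0.96 ± 0.21 and 1.04 ± 0.21 (adjusted *P* = 0.0104 and 0.0109, edgeR), Rela by 0.51 ± 0.10 and 0.42 ± 0.10 (adjusted *P* = 0.00734 and 0.0237), and Nfkb1 by 0.38 ± 0.08 and 0.37 ± 0.08 (adjusted *P* = 0.00729 and 0.0131). Relb had 0.13 ± 0.21 and 0.59 ± 0.21 (adjusted *P* = 0.714 and 0.0813).

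**Figure D4:**
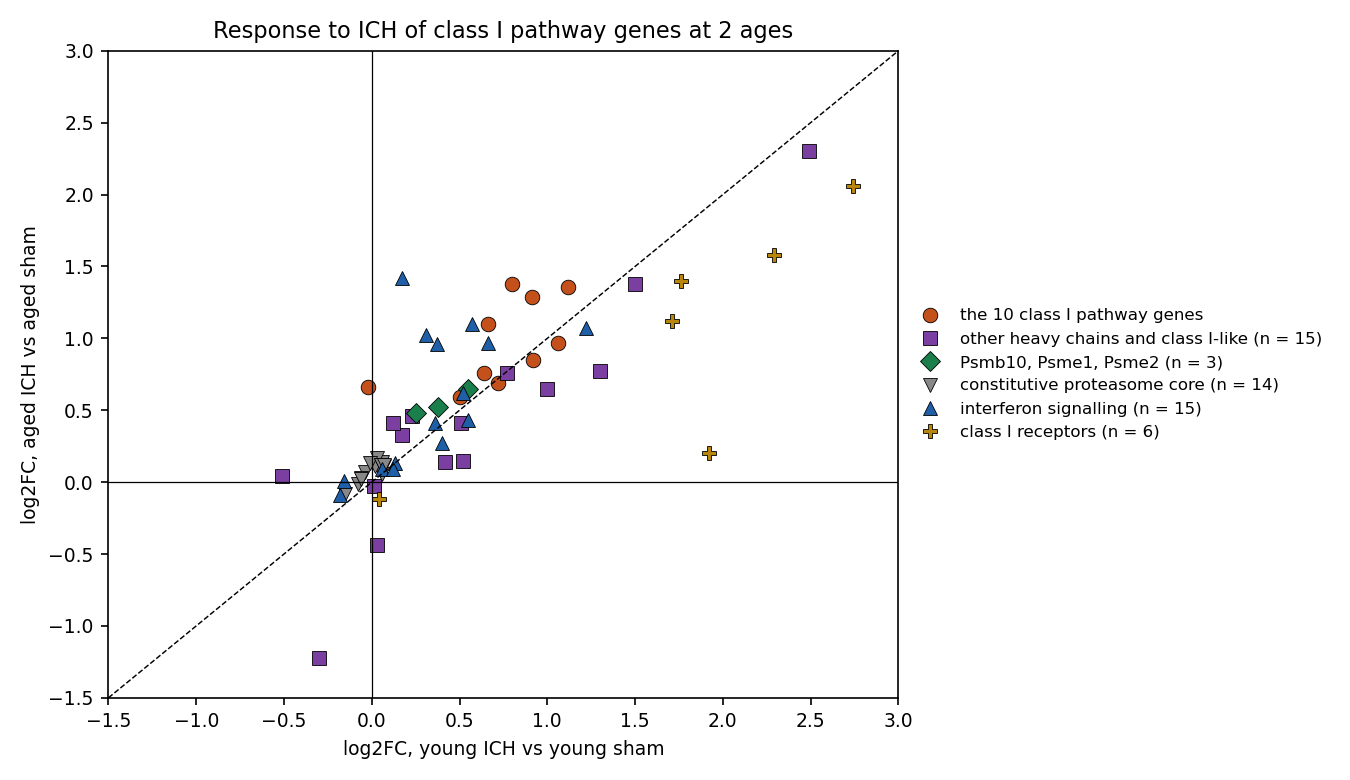
log2FC of ICH against sham (edgeR) in young mice (horizontal) and aged mice (vertical) for the 10 genes and 5 related lists, 1 point per tested gene, with a dashed line of equal values. The 14 constitutive proteasome genes lie near 0 at both ages, and of the 10 class I pathway genes H2-T23 is farthest above the line, at −0.02 and 0.66.

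On the receiving side, 6 of 10 listed genes for class I receptors, coreceptors and related receptors were tested. Of these, 4 rose past adjustment in young mice and 2 in aged mice (edgeR), against 9.89% and 7.0% of all genes. Pirb, an inhibitory receptor of myeloid cells for class I, rose by 1.76 ± 0.31 and 1.40 ± 0.30 (adjusted *P* = 0.00375 and 0.0132), and the related Lilrb4a by 2.74 ± 0.52 and 2.06 ± 0.48 (adjusted *P* = 0.00524 and 0.0192). Klrd1, which encodes the CD94 chain that reads H2-T23, rose in young mice (2.29 ± 0.51, adjusted *P* = 0.0109) from 3 to 12 counts per sham sample to 20 to 48, and had 1.58 ± 0.52 in aged mice (adjusted *P* = 0.0658). Klra2, of the Ly49 family, rose in young mice (1.71 ± 0.43, adjusted *P* = 0.0191) and had 1.12 ± 0.41 in aged mice (adjusted *P* = 0.0973). Cd8a, the coreceptor of the T cells that read H2-K1 and H2-D1, was picked with its values in view and had 113 counts in young ICH sample 1 and 3 to 17 in the other 11 samples. Of 5 genes for stress ligands of the NKG2D receptor, 2 were tested, and Ulbp1 rose in young mice (0.82 ± 0.24, adjusted *P* = 0.0316), with 0.64 ± 0.23 in aged mice (adjusted *P* = 0.0934).

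Markers of infiltrating leukocytes and of some resident cells moved with the ICH groups as well. Over all genes, 8.66% in young and 7.24% in aged mice were upregulated DEGs after ICH, and 2.82% in aged sham vs. young sham. Past adjustment, 9.89% and 7.0% of all genes rose after ICH. Of 7 monocyte and macrophage markers, 5 were upregulated DEGs at either age, and their summed FPKM was 13.2 to 16.7 in young sham, 42.4 to 68.0 in young ICH, 17.8 to 46.2 in aged sham and 69.2 to 75.9 in aged ICH. Neutrophil markers, with 6 of 8 tested as DEGs at either age and 7 of 8 in aged sham vs. young sham, summed to 1.32 to 2.65, 8.15 to 23.1, 4.06 to 14.6 and 26.8 to 44.3. The 7 microglial markers summed to 104 to 128, 113 to 132, 122 to 126 and 119 to 133, and 2 of them fell at both ages (edgeR, after adjustment). NK cell markers summed to at most 0.388, 3.82, 0.521 and 0.569. Of 6 listed, 2 were tested, with median log2FC of 2.25 in young and −0.01 in aged mice. Nkg7 rose in young mice (2.53 ± 0.77, adjusted *P* = 0.0397, edgeR), with 62, 10 and 11 counts in young ICH samples 1 to 3. Gzma, which was not tested, had 52, 6 and 29 counts there and 0, 1 and 4 in young sham. Ncr1 had 3, 2 and 4 counts in young ICH and was at 0 in 6 samples. Of 6 T cell markers tested, 4 were upregulated DEGs in young mice and 0 in aged mice, where 1, Cd4, was a DEG in the other direction. The median log2FC was 1.53 and 0.74, with 1 past adjustment, in young mice. The 4 were highest in young ICH sample 1. Counts in young ICH samples 1 to 3 were 74, 15 and 22 for Cd3e, 65, 6 and 11 for Cd3g, and 158, 49 and 63 for Lck. For Cd8a they were 113, 14 and 9. Cd3e, Cd3g and Cd8a overlapped between young ICH and young sham samples. The T cell markers summed to 5.51 to 9.89, 3.12 to 11.5, 5.78 to 7.86 and 2.56 to 6.94. Cd4 had the highest mean of them in every group, at 5.7, 2.93, 5.96 and 2.62 FPKM. In young ICH samples 1 to 3 Cd4 was at 2.81, 1.4 and 4.58, beside 14.4, 5.04 and 22.1 for the striatal marker Drd1. In aged ICH it was at 0.716, 4.99 and 2.14, beside 4.02, 26.6 and 10.6. The sum is thus not a measure of T cells alone. Of 6 endothelial markers, 4 rose in young mice and 2 in aged mice, with sums of 66.3 to 79.5, 103 to 117, 69.0 to 82.1 and 89.3 to 113. Of 5 astrocyte markers, 3 rose in young mice, and 2 rose and 1 fell in aged mice, with sums of 460 to 491, 678 to 830, 425 to 585 and 706 to 788. Of 5 general neuronal markers, 3 fell in young mice and 0 in aged mice, with sums of 817 to 962, 612 to 776, 797 to 870 and 680 to 755. Of 5 oligodendrocyte markers, 0 passed adjustment in young mice and 2 fell in aged mice, with sums of 653 to 1121, 789 to 1074, 720 to 941 and 600 to 702. Red blood cell markers summed to 6.14 to 26.3, 36.5 to 154, 33.9 to 48.1 and 31.1 to 87.8. Of these 5, 4 were upregulated DEGs after ICH in young mice, 1 in aged mice and 3 in aged sham vs. young sham. The part of any of these cells in the class I values was not tested.

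The 10 genes also varied together within groups, where neither age nor surgery differed. Aged ICH sample 1, aged sham sample 1 and young sham sample 3 were each the highest of their group for all 10 genes, and young ICH sample 3 for 9. Aged sham sample 2 was the lowest of its group for all 10, young sham sample 2 and young ICH sample 2 for 8, and aged ICH sample 2 for 7. Aged ICH sample 1 and young ICH sample 3, among the highest, were choroid plexus-rich libraries, as was aged ICH sample 2. The order is by FPKM, and the share of all genes with the same order was not computed. It therefore need not be particular to these 10 genes. The summed striatal neuron markers were lowest of their group in aged ICH sample 1 (95.6) and young sham sample 3 (424), and highest in aged sham sample 2 (695). In young ICH the order was the other way, with sample 3 highest (494) and sample 2 lowest (123). The part of tissue composition in this was not tested. After the group mean was subtracted from each sample, the genes whose log2 CPM followed the mean of the 10 most closely over 12 samples were Ifit3 (Pearson r = 0.98), Eif4a1 (0.975), Zbp1 (0.974), H2-Q4 (0.971), Mx2 (0.963), Gm12250 (0.963), Irf7 (0.959), Nmi (0.956), Oas1a (0.954) and Phf11d (0.954). Several are known IFN-stimulated genes, such as Ifit3, Mx2, Irf7 and Oas1a, and Eif4a1 is a translation initiation helicase. These r are a description, since the points share libraries and depth and the genes were the highest of all tested. Irf7, for example, was at 1.96, 1.71 and 4.55 FPKM in young sham, 2.72, 2.61 and 4.51 in young ICH, 4.73, 1.14 and 2.92 in aged sham and 11.1, 7.15 and 6.53 in aged ICH.

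**Figure D5:**
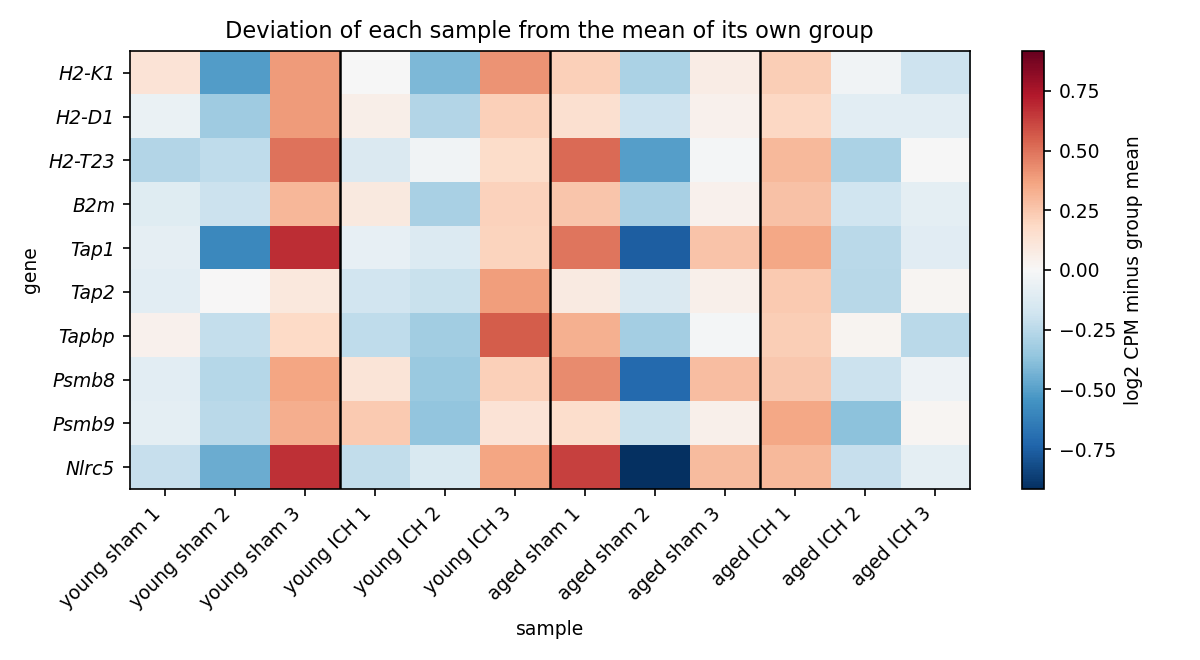
Deviation of log2 CPM of each of the 10 genes (rows) from the mean of its own group in each of 12 samples (columns), with red above and blue below and black lines between groups. Columns tend to keep 1 color, with aged sham sample 1 and aged ICH sample 1 above their group mean and aged sham sample 2 below for all 10 genes.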

How the data were processed

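Samples were grouped by their labels, 3 in each of 4 groups, and all 12 columns of each kind were assigned. Reads were aligned to GRCm38.p6 with HISAT2 and counted per gene with featureCounts by the authors, who deposited raw counts and FPKM for 54833 genes. The strand setting and the handling of multiply aligned reads are not given in the sources used here. Counts were tested with the edgeR quasi-likelihood test (edgeR 4.0.16, R 4.3.3), with TMM normalization, filterByExpr at a minimum count of 10, all 12 samples in 1 fit and no block, where the study used DESeq2, which was run as an alternative (DESeq2 1.42.0). The script was tested on simulated data. DEGs had FC > 1.5 or FC < 0.67 and unadjusted *P* under 0.05, as in the study, and Benjamini-Hochberg adjustment ran over 21495 genes. Ratios of subunits were compared by exact permutation (scipy 1.17.1). FPKM was used as deposited, without TMM factors, for levels and for the overlap of groups. The log2 CPM had a prior count of 2, and *P* values measure the spread between pooled samples.

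Gene positions, exon overlaps and 100-base windows came from GENCODE vM21, and promoters from RefSeq. The 10 genes and the related lists were chosen with earlier results of these data known. All 10 are named, and in each related list up to 4 genes with the smallest *P* in either ICH vs. sham comparison, those giving a range, and Psmb10, Psme1, Psme2, Psmb5, Psmb6, Psmb7, Irf1 and Ifng. A further gene that the rule names, and a motif search tied to it, are not reported here. Alternatives were RLE factors, no filter, only the groups compared, a replicate block, leaving out each sample, and, chosen after seeing the data, leaving out the choroid plexus-rich libraries.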

Additional observations from a re-analysis of the deposited data

How the results depend on the processing

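In young ICH vs. young sham, 5 of the 10 genes passed adjustment in the reported fit, 8 with DESeq2 and 3 with only the groups compared. When single samples were left out, 1 to 7 passed, and DEGs ranged from 4 to 9. In aged ICH vs. aged sham, where 8 passed adjustment, leaving out single samples gave 1 to 9, with 8 to 10 DEGs, and the choroid plexus-rich libraries left out, with a single aged ICH sample remaining, gave 1 and 6. DEGs numbered 0 to 5 for aged sham vs. young sham and 1 to 7 for aged ICH vs. young ICH when single samples were left out. The latter had fewer DEGs without the choroid plexus-rich libraries. Shares over all genes were not computed for these alternatives. RLE factors and no filter on low counts kept each count within 1.5 times. Over all genes tested, same-numbered samples of different groups had correlations of −0.45 to 0.23 (18 pairs, 5 over 0.1) and others −0.37 to 0.41 (36 pairs, 13 over 0.1). Of the 10 genes, however, sample 2 was the lowest for 8 in young sham, 8 in young ICH, 10 in aged sham and 7 in aged ICH. That order is by FPKM, without the share over all genes. Correlations over all genes do not show whether these 10 share a replicate effect. With a replicate block 8, 10, 0 and 5 genes were DEGs and 7, 9, 0 and 0 passed adjustment in the 4 comparisons.

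Among values of single genes under the alternatives, 807 kept direction and side of the threshold, 22 crossed it upward, 30 downward and 31 changed sign. The sign of H2-T23 in young mice changed with the replicate block (0.00) and over −0.16 to 0.27 with single samples left out, and in aged sham vs. young sham it ranged from −0.28 to 0.32, where Tapbp ranged from −0.12 to 0.20. Interactions ranged from −0.27 to 0.16 for H2-K1, −0.24 to 0.13 for H2-D1, −0.08 to 0.23 for B2m, −0.17 to 0.49 for Tap1, −0.22 to 0.13 for Tap2 (0.14 without the choroid plexus-rich libraries) and −0.03 to 0.46 for Tapbp. The log2 difference of Psmb10/Psmb7 ranged from −0.11 to 0.20 in aged sham vs. young sham and −0.04 to 0.34 in aged ICH vs. young ICH. The causes were not tested. Psmb9 had the fewest counts, and the IFN ligand genes could not be tested.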
